A study of Homo sapiens with 4 samples.

Results

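The circRNAs hosted by HIPK3 and HIPK2 were taken as every entry of the deposited circRNA table whose host gene was listed as HIPK3 or HIPK2, whatever their category. This gave 10 of the 12571 circRNAs listed, 5 for HIPK3 and 5 for HIPK2. Both genes were chosen by their junction reads in these libraries, so the differences between irradiated and control libraries below are given as a description and not as a test.

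HIPK3 and HIPK2 encode homeodomain-interacting protein kinases, serine/threonine kinases found mostly in the nucleus, where they act with transcription factors and corepressors. HIPK2 is known for phosphorylating p53 after severe DNA damage, which favours apoptosis. A circRNA forms when the end of an exon is spliced to the start of the same or an earlier exon, and only reads across this back-splice junction tell the circle from the linear RNA. The circle of HIPK3 exon 2, often called circHIPK3, is known from many human tissues and cell lines and has been studied as a binding partner of several miRNAs.

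The study sequenced exosomes shed by pancreatic cancer cells that had or had not been irradiated, in order to list the circRNAs that dying tumour cells release. The control group had 2 libraries (A1 and A2) and the irradiated group, given 10 Gy of X-rays, had 2 libraries (B1 and B2). The same 4 established pancreatic cancer lines, MIA PaCa-2, BxPC-3, SW1990 and PANC-1, are named for each library, so which line gave which library cannot be told apart. Exosomes were collected by differential centrifugation from medium with exosome-depleted serum, and their total RNA was sequenced after rRNA removal.

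The libraries held 5756 to 15150 junction reads each. Exonic circles, those whose ends match exon ends, were nearly lacking in the controls. They made up 3 of 6544 junction reads in A1 (0.0458%) and 4 of 8094 in A2 (0.0494%), against 66.5% in B1 and 35.9% in B2. Of 5030 circRNAs with a read in an irradiated library, 4983 (99.1%) had none in a control library. The absence of HIPK3 and HIPK2 circles from the controls therefore came with the absence of almost all exonic circles, and the part of this difference in the values below was not tested. Of 10 epithelial and pancreatic cancer marker genes, 1 had circRNA reads (EPCAM, 2 in B1). Of 10 blood markers 2 had reads, both in the controls (PPBP, 2 in A1, and PTPRC, 2 in A2), and of 10 stroma markers 2 had reads, both in B2 (COL3A1, 4, and VIM, 6). Their part in the values below was not tested.

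The junctions are printed because they are what the reads counted. Each line gives the last 15 bases of the circle in lower case and then its first 15 bases in capitals, 5′ to 3′ on the listed strand, read from GRCh37.
HIPK3 exon 2 (hsa_circ_0000284): atctcggtactacagGTATGGCCTCACAAG
HIPK2 exon 2 (hsa_circ_0001756): gtccagatattacagGTATGGCCTCACATG
HIPK3 exons 7 to 8 (hsa_circ_0000285): ccccagctattcaagTGTAAAGTCCTGTTT
HIPK3 exons 7 to 14: caagagaccgaatagTGTAAAGTCCTGTTT
HIPK3 exons 3 to 11: acagtgccagaacagAGCTCCAGAGATTAT
HIPK2 inside exon 2, plus strand: gctgttggagccgctAGGTTCTGCTCCAAC
The exon 2 junctions of the paralogues shared 24 of these 30 bases, 14 of 15 after the junction and 10 of 15 before it. The longest unbroken identical run was 18 bases and spanned the junction. The circles of exons 7 to 8 and 7 to 14 shared their first exon and so their capitals.

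HIPK3 lies on the plus strand of chromosome 11, and its main transcript has 17 exons over 99.64 kb. The most abundant of its circles, hsa_circ_0000284, lies at chr11:33307959-33309057 (hg19, plus strand) and holds exon 2 alone, 1099 nt. It had 0 reads in A1, 0 in A2, 109 in B1 and 25 in B2. Both irradiated libraries lay above both controls, and B1 held most of the reads. As a share of all junction reads this was 0.720% of B1 (95% Wilson interval 0.597 to 0.867) and 0.434% of B2 (0.294 to 0.640). Intervals here cover counting error only. The level, in reads per 1000000 junction reads (RPM), was 7195 in B1 and 4343 in B2. The limit that 3 counts allow was 458 RPM in A1 and 371 in A2. Per junction read, the circle in the irradiated group stood 31.3-fold above a joint floor of 3 counts for A1 and A2. Counting error of the irradiated reads is not in this value. Relative to exonic reads no such value can be given, as the controls held 3 exonic reads in A1 and 4 in A2. A column named A3, which matches no sample title and was not used, held reads of this circle.

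No other circle of B1 had as many reads as the HIPK3 exon 2 circle, which ranked 1 of 3492. The next exonic circle of B1 had 43 reads. In B2 it ranked 2 of 1861, after a junction of HLA-C, a class I antigen presentation gene, with 85 reads, and it ranked 1 of 668 among exonic circles, where the next had 14 reads. It took 1.08% of exonic reads in B1 (0.898 to 1.30) and 1.21% in B2 (0.821 to 1.78), so these intervals overlapped.

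The same coordinates were listed a second time on the minus strand, as an antisense circRNA of 1099 nt without a circBase identifier. This entry had 0 reads in A1, 0 in A2, 7 in B1 and 1 in B2. Only on the plus strand did its ends carry AG before and GT after, the dinucleotides that flank most spliced exons. Minus strand reads were 7 of the 116 reads at these ends in B1 (6.03%, 2.95 to 11.9) and 1 of 26 in B2 (3.85%, 0.682 to 18.9). Over all exonic circles the same share was 3.52% in B1 and 7.48% in B2. Of the 38 exonic circles with at least 20 irradiated reads, 16 had reads on the other strand, and 15 had a higher share than the 5.63% of the HIPK3 circle. The share at HIPK3 thus lay inside the range of other well-read circles, up to 31.0%.

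Further HIPK3 circles came from the 3′ part of the gene. The circle of exons 7 to 14 (chr11:33362514-33370833, 1194 nt over 8 exons) had no circBase identifier and had 0 reads in A1, 0 in A2, 10 in B1 and 0 in B2. The circle of exons 7 to 8 (hsa_circ_0000285, chr11:33362514-33363232, 284 nt) had 3 reads in B1 and none in the other libraries. The circle of exons 3 to 11 (chr11:33350056-33369559, 1209 nt over 9 exons, no circBase identifier) had 2 reads in B2 and none elsewhere. All 3 had both ends at annotated exon ends and lay in coding exons. None had reads in both irradiated libraries, which was also so for most exonic circles. Of 2566 exonic circles with an irradiated read, 280 were read in both libraries.

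Of all HIPK3 junction reads the exon 2 circle made up 109 of 129 in B1 (84.5%, 77.3 to 89.7) and 25 of 28 in B2 (89.3%, 72.8 to 96.3). The intervals overlapped, and over both libraries the share was 134 of 157 (85.4%, 79.0 to 90.0). With the minus strand entry left out it was 89.3% in B1, 92.6% in B2 and 89.9% over both. With circBase entries only it was 97.3%, 100% and 97.8%. A1 and A2 had no HIPK3 read, so no share could be given for them. Among 74 hosts with at least 2 exonic circles and 20 irradiated reads in them, the leading circle held a median of 53.7% of the exonic reads, and HIPK3 ranked 9 by this share with 89.9%. HIPK3 had 4 exonic circles and ranked 1 by exonic reads among 1800 hosts, of which 68 had 4 or more such circles.

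**Figure D1:**
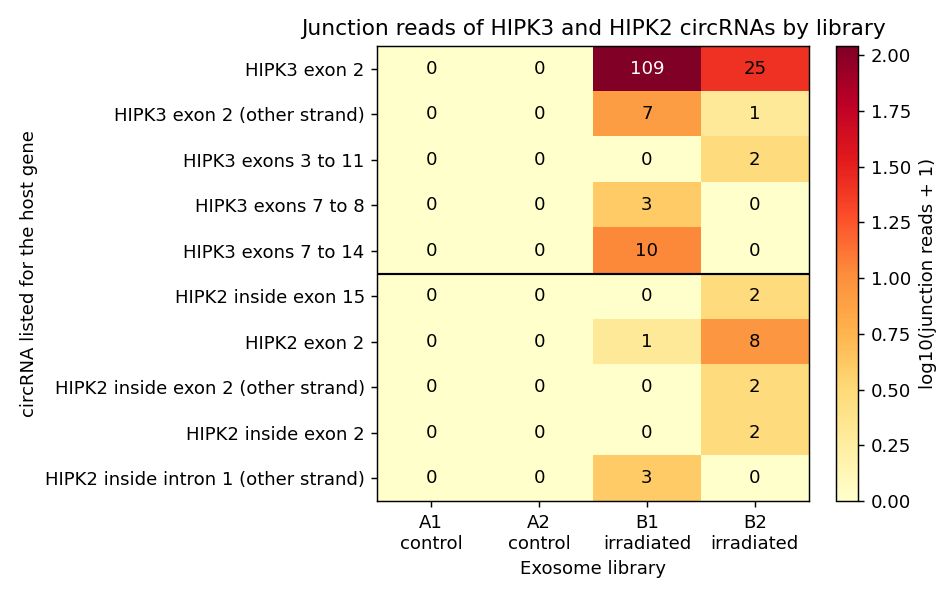
Junction reads of the 10 HIPK3 and HIPK2 circRNAs (vertical axis) in the 4 exosome libraries (horizontal axis), with the count written in each cell and the colour giving log10(reads + 1). All cells of A1 and A2 hold 0, and the HIPK3 exon 2 circle holds the highest counts, 109 in B1 and 25 in B2.

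HIPK2 lies on the minus strand of chromosome 7, and its main transcript has 15 exons over 231.5 kb. Its exon 2 circle, hsa_circ_0001756, lies at chr7:139415731-139416814 (minus strand, 1084 nt) and is the counterpart of the HIPK3 circle by exon number and length. It had 0 reads in A1, 0 in A2, 1 in B1 and 8 in B2. The single B1 read left B1 close to the controls. The level was 66.0 RPM in B1 and 1390 in B2. The 3-count limit was 198 RPM for B1, above the B1 level, and 521 for B2. With each group pooled, the circle stood 2.10-fold above a control floor of 3 counts per junction read. Counting error of the irradiated reads is not in this value. This fold rested on B2, since it was 6.78-fold without B1, and without B2 the single read left lay under the floor. It shared rank 30 of 1861 in B2 with other circles of 8 reads, and rank 18 of 668 among exonic circles.

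The other 4 HIPK2 entries had no circBase identifier, and none had both ends at annotated exon ends. On both strands, chr7:139415983-139416308 (326 nt) was listed inside exon 2, and each entry had 2 reads in B2 and 0 in the other libraries. Its flanking AG and GT lay on the plus strand, opposite to the gene. A circRNA of 701 nt on the plus strand at chr7:139444487-139445187, inside intron 1, had 3 reads in B1 and none elsewhere, and its motif lay on the minus strand. A circRNA of 169 nt at chr7:139251515-139251683 on the minus strand, inside exon 15 and after the coding part, had 2 reads in B2 and none elsewhere. The exon 2 circle made up 1 of 4 HIPK2 reads in B1 (25.0%) and 8 of 14 in B2 (57.1%, 32.6 to 78.6), or 9 of 18 over both (50.0%, 29.0 to 71.0). HIPK2 had 1 exonic circle, the median of all hosts, and ranked 346 by exonic reads.

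**Figure D2:**
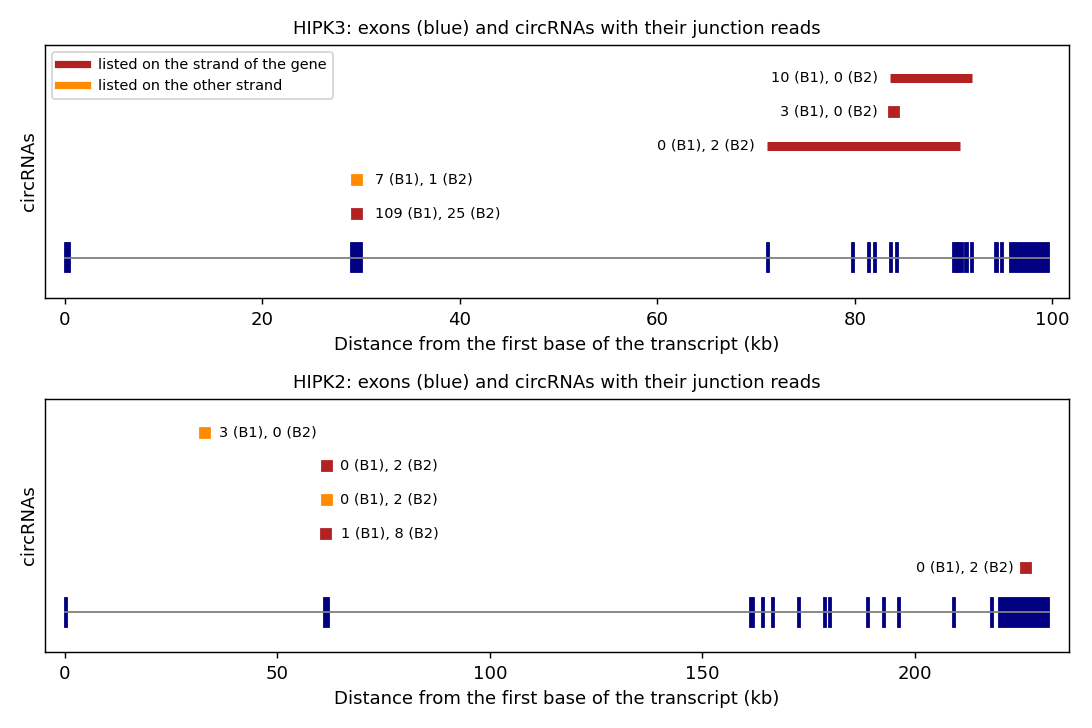
Exons (blue bars) of the main HIPK3 and HIPK2 transcripts by distance from the first transcribed base (kb), with the circRNAs above them in red (strand of the gene) or orange (other strand) and their B1 and B2 reads beside them. Positions are to scale, squares mark circles too short to draw to scale, and narrow exons are drawn at a minimum width. The HIPK3 reads gather at exon 2, 109 in B1 and 25 in B2, with the remaining exonic circles between exons 3 and 14.

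Of the 10 circRNAs none had a read in A1 or A2, 3 had reads in both irradiated libraries, 3 only in B1 and 4 only in B2. Over the whole series 5030 circRNAs had an irradiated read, 3492 of them in B1 and 1861 in B2. Of these 5030, 99.1% had no control read. At least 5 reads over the 4 libraries, the minimum for a test, were reached by 4, namely both exon 2 circles, the minus strand HIPK3 entry and the circle of exons 7 to 14. All 4 reached it through the irradiated libraries alone. Among the 9405 circRNAs with a read, 1957 reached it. Over the 1957 circRNAs with that many reads, edgeR's quasi-likelihood test gave 69 higher (3.53%) and 4 lower (0.204%) at a more than 2-fold change with p below 0.05 before adjustment, and 2 (0.102%) passed an adjusted p of 0.05. Of the HIPK3 and HIPK2 circRNAs 1, the HIPK3 exon 2 circle, stood among the 69. As the genes were chosen by these reads, this places the circle in the table and is no test of it. The fitted log2 fold change was 9.69 for the HIPK3 exon 2 circle, 6.55 for the HIPK2 exon 2 circle, 5.58 for the minus strand entry and 5.71 for exons 7 to 14, with a median of 5 over all circRNAs tested. These fitted values rest on controls at 0 and are no bounds, and the median changed sign when B1 was left out.

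The irradiated libraries themselves differed, and in RPM this difference ran opposite ways for the exon 2 circles of the paralogues. In RPM the HIPK3 circle was 1.66 times as high in B1 as in B2 (exact 95% interval 1.07 to 2.67). The HIPK2 circle stood at 0.0475 of its B2 level in B1 (0.00107 to 0.354). For HIPK3 the direction depended on the scale. The ratio was 4.36 in raw reads and 4.43 relative to mapped reads, but 0.895 (0.575 to 1.44) relative to the reads of exonic circRNAs. For HIPK2 it was below 1 on all 4 scales, from 0.0257 relative to exonic reads to 0.127 relative to mapped reads.

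**Figure D3:**
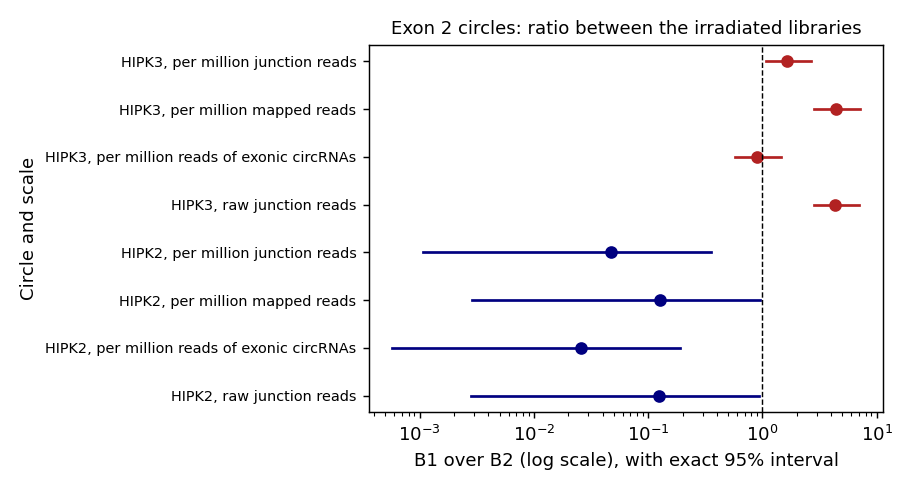
Ratio of B1 over B2 (horizontal log axis) for the HIPK3 (red) and HIPK2 (blue) exon 2 circles on 4 scales, with bars giving exact 95% intervals for counting error and a dashed line at equal levels. The HIPK3 ratio runs from 0.895 to 4.43 and the HIPK2 ratio from 0.0257 to 0.127.

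Set against each other inside a library, where no scaling enters, there were 109 HIPK3 reads for each HIPK2 read in B1 and 3.13 in B2. The HIPK2 share of both circles was 1 of 110 in B1 (0.909%, 0.161 to 4.97) and 8 of 33 in B2 (24.2%, 12.8 to 41.0). The odds of a HIPK2 read were 33.8 times as high in B2 as in B1 (exact interval 4.22 to 1561). This compares 2 libraries of the same group and rests on 9 HIPK2 reads.

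Other exonic circles placed the pair among their like. For 258 exonic circles with at least 9 irradiated reads, the median share of reads that came from B2 was 0%, and over all exonic reads it was 17.03%. The HIPK3 circle had 18.7% in B2 (12.97 to 26.1), an interval that holds the share of all exonic reads, and 64 circles had a higher share. The HIPK2 circle had 88.9% (56.5 to 98.0), and 5 circles had more, each with 9 or 10 reads in B2 and 0 in B1. These were circles of PMM2, SIPA1L3, STK39, HECW2 and USP53.

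**Figure D4:**
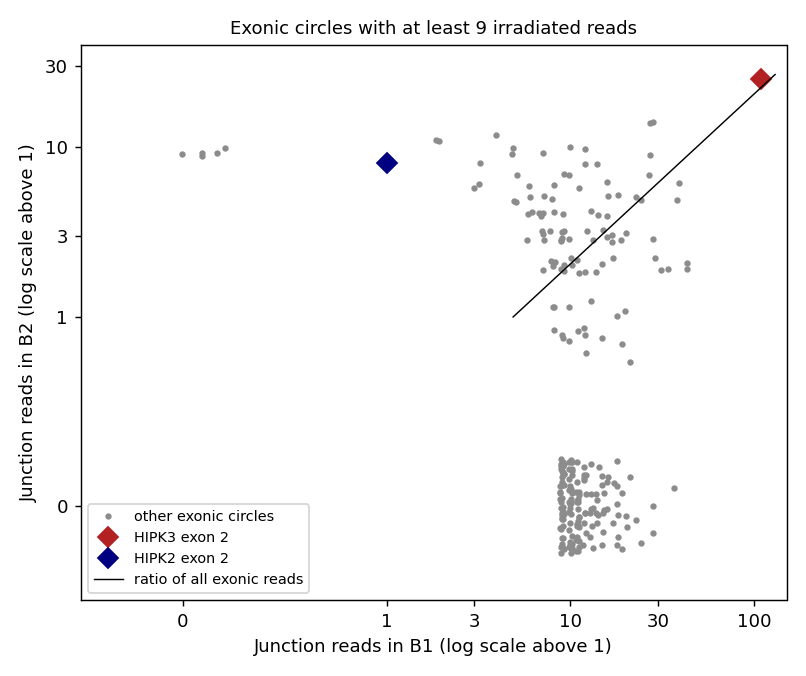
Junction reads in B1 (horizontal) and B2 (vertical), both on log scales above 1, of the 258 exonic circles with at least 9 irradiated reads, with overlapping grey points moved apart slightly and a line for the ratio of all exonic reads. The HIPK3 exon 2 circle (red) sits at the upper right close to the line, and the HIPK2 circle (blue), with 1 read in B1 and 8 in B2, sits to its far left.

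By their level in the 4 libraries, the circRNAs nearest to the HIPK3 exon 2 circle were those of ZNF608, CORO1C, SLC8A1, FCHO2 and SMARCA5. Likeness was the root mean square difference of log2(RPM + 1) over the 4 libraries, which was 1.07, 1.09, 1.25, 1.27 and 1.36 in that order, among 1956 circRNAs compared. All 5 were exonic circles with no control read. The ZNF608 circle had 28 reads in B1 and 14 in B2, the SLC8A1 circle 27 and 9. SLC8A1 encodes a sodium/calcium exchanger and SMARCA5 a chromatin remodelling ATPase.

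The exon 2 circles were long single exons between long introns. Exon 2 of HIPK3 was longer than 99.4% of 165435 internal exons of the annotation, whose median was 123 nt, and so was exon 2 of HIPK2. Of 2229 exonic circBase circles that matched annotated exons, 140 (6.28%) held exactly 1 exon, with a median of 482 nt. Among these the HIPK3 circle had the most reads (134). It was followed by circles of ZNF608 exon 3 (256 nt, 42 reads), SLC8A1 exon 2 (1832 nt, 36 reads), and ZBTB44 exon 2 (1074 nt) and PCMTD1 exon 2 (402 nt) with 31 reads each. The HIPK2 circle shared rank 29. Circles that start at exon 2 numbered 653 of 2229 (29.3%), so this feature was common.

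The introns beside HIPK3 exon 2 measured 28523 nt upstream and 40998 nt downstream. Their sum was longer than that of 88.0% of 2224 circles with introns on both sides, whose median was 18720 nt. Those beside HIPK2 exon 2 measured 60589 nt upstream and 99259 nt downstream, a sum longer than that of 97.7% of these circles. Inverted matches of at least 200 nt and 70% identity were searched between the introns on either side, over at most 5000 nt of each. The HIPK3 exon 2 circle had 4 matches, the best 297 nt at 82.8% identity. The HIPK2 exon 2 circle had 2, the best 286 nt at 81.5%. The circles of exons 7 to 8 and 7 to 14, with 1433 nt of intron upstream, had 1 each. That of exons 3 to 11 could have none, as its downstream intron of 152 nt is shorter than the minimum match. Such matches were found for 1498 of 2224 circles (67.4%).

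In HIPK3 the start codon of the main transcript lies 2 bases into exon 2, as the capitals of its junction show (GTATGG), and 1097 of 1099 nt are coding, which makes 365 whole codons of 1215. In HIPK2 all 1084 nt are coding in the main transcript, whose start codon lies in exon 1. The exons were 68.5% identical over 1059 aligned bases, with a GC content of 42.0% in HIPK3 and 53.6% in HIPK2. Exon 2 thus held coding sequence from the 5′ part of both genes. Whether GC content bears on the reads was not tested.

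Seed sites were searched for 3 miRNAs for which the HIPK3 circle has been described as a partner, and for which RefSeq (GRCh38.p14) gave the mature sequence. For another described partner, hsa-miR-124-3p, no sequence was matched, so its sites were not searched. Capitals mark the seed, bases 2 to 8.
hsa-miR-7-5p: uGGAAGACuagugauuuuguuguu
hsa-miR-558: uGAGCUGCuguaccaaaau
hsa-miR-30a-3p: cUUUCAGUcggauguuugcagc
The HIPK3 circle held 2 matches to the hsa-miR-30a-3p seed (ACTGAAA), 1 to hsa-miR-558 (GCAGCTC) and 0 to hsa-miR-7-5p (GTCTTCC). The HIPK2 circle held 1, 0 and 1. Only the strand of the gene was searched, as the circle carries that strand. The sites are shown with 10 bases on either side and the match in capitals (GRCh37).
HIPK3, hsa-miR-30a-3p, chr11:33308698-33308724: aaggctcagtACTGAAAatgctgatga
HIPK3, hsa-miR-30a-3p, chr11:33308877-33308903: tggccactgcACTGAAAaaattgaaaa
HIPK3, hsa-miR-558, chr11:33308236-33308262: aaaggtcataGCAGCTCaggcacagca
HIPK2, hsa-miR-30a-3p, chr7:139416728-139416754: gtgtgaagaaACTGAAAatagagccga
HIPK2, hsa-miR-7-5p, chr7:139416565-139416591: gcagaccatcGTCTTCCcaggaagcac
Of 1669 exons of 1000 to 1200 nt, a match was found in 12.6% for hsa-miR-30a-3p, 14.3% for hsa-miR-558 and 9.53% for hsa-miR-7-5p. A match is a run of letters and says nothing of binding in these exosomes.

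The remaining HIPK genes had few or no circRNA reads. HIPK1 had no entry, and HIPK4 had 1 antisense entry with 2 reads in A1. Among 12 relatives, which besides these included the DYRK and CLK kinases, 2 had reads as hosts of exonic, intronic or sense overlapping circRNAs. DYRK1A, a kinase dosage-sensitive in brain development, had 9 reads in B1 and 0 in the other libraries. CLK1, which phosphorylates SR splicing factors, had 13 reads in B1 and 0 elsewhere. Neither passed the test, and both were read in B1 only, like the HIPK3 circle of exons 7 to 14.

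Of 35 partners, substrates and regulators of HIPK proteins, 13 had circRNA reads and 4 reached 5 reads. ATM, the kinase that signals DNA double-strand breaks and acts upstream of HIPK2, had 13 reads in B1, 8 in B2 and 0 in A1 and A2, over 5 exonic circles. WSB1, a ubiquitin ligase component that targets HIPK2, had 2 in B1 and 4 in B2. AXIN1, a scaffold of Wnt signalling, had 11 in B1 and 0 in B2, and the acetyltransferase CREBBP 9 and 0. By edgeR's quasi-likelihood test on host genes ATM was called higher before adjustment and not after it (log2 fold change 6.35, adjusted p = 0.192), and the other 3 and both relatives were not called. With 1504 hosts tested, the median log2 fold change was 4.3. Of these hosts 142 (9.44%) were called higher and 17 (1.13%) lower before adjustment, and 23 (1.53%) passed it. The ATM call was lost under 8 of the alternatives tried, among them leaving out each of the 4 libraries. All 6 listed hosts that reached 5 reads did so through the irradiated libraries alone, with 0 reads in A1 and A2, so a fitted value above 0 was fixed by the read minimum.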

How the data were processed

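Trimming (Cutadapt 1.9.3), alignment to hg19 (STAR 2.5.1b), junction calling (DCC) and annotation with circBase were done by the authors. The deposited values used here are raw counts, 1 whole number of back-splice reads for each circRNA in each library. The table also holds log-scale values the authors computed, which were not used. Columns were matched to samples by name. Of the per-library columns 4, named A3 and B3 and 2 of them junction reads, match no sample title and were not used. An earlier look at A3 showed reads of hsa_circ_0000284. Whether A3 is a further control is not settled here, so statements on the controls hold for A1 and A2. The study's own lists appear to take another column than the B2 used here as the second irradiated library.

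Depth was 6544 (A1), 8094 (A2), 15150 (B1) and 5756 (B2) junction reads. Mapped reads per library, used in 1 alternative, are totals the study gives, and that of B2 may belong to another column. Reads without molecular identifiers are not independent molecules.

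circRNAs with at least 5 reads in all were fitted in edgeR 4.0.16 (R 4.3.3) with TMM and the quasi-likelihood test, irradiated against control, with Benjamini-Hochberg adjustment over all tested, and host genes likewise on summed exonic, intronic and sense overlapping reads. The fitting code was run on simulated counts, which were deeper and less variable than the real ones and so say nothing of power here. Nothing says that replicates are separate cultures, so p-values measure only the spread between these samples. With 2 against 2 libraries an exact permutation test cannot go below 0.333. Alternatives were other scalings, no filter, DESeq2 1.42.0, the replicate block, exonic circRNAs only and leaving out each library. Exons, junctions and sites were read from GRCh37 with GENCODE main transcripts (ENST00000303296.9 and ENST00000406875.8), and inverted matches with blastn 2.17.0. Shares carry 95% Wilson intervals and ratios exact binomial ones.

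The members, gene lists and tests were chosen with earlier results of these data known. Named were all circRNAs of both hosts, the 5 circRNAs nearest to the HIPK3 exon 2 circle, listed hosts with at least 5 reads and the 5 single-exon circles with the most reads. Marker genes, HIPK4, HLA-C and the 5 circles with a higher B2 share than the HIPK2 circle were named outside this rule, after their values were seen.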

Additional observations from a re-analysis of the deposited data

How the results depend on the processing

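The counts of calls over all features, which serve as background, moved with most settings. For circRNAs called higher, 69 as reported, the count was 14 with RLE factors, 7 without TMM, 21 with mapped reads as library sizes, 42 without the filter and 3 with DESeq2, and 5 (without A2) to 367 (without B2) when a library was left out. For circRNAs called lower, 4 as reported, these were 0, 25, 16 and 9 for RLE factors, no TMM, mapped reads and no filter, and 0 (without A1) to 19 (without B2). For hosts called higher, 142 as reported, the count was 8 with RLE factors, 58 without TMM, 15 with mapped reads, 9 with DESeq2 and 52 for exonic circRNAs only, and 6 (without B1) to 52 (without A2). For hosts called lower, 17 as reported, it was 3, 37, 6, 6 and 0, and 11 (without A2 or B2) to 14 (without A1). The median log2 fold change moved too. For circRNAs, 5 as reported, it was 3.69 without TMM, -4.06 without B1 and 5.92 without B2. For hosts, 4.3 as reported, it was 3.82 without TMM, 0.203 without B1 and 5.13 without B2. The TMM factors of the circRNA fit ran from 0.325 (B1) to 2.3 (A1). The cause was not tested.

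Whether the replicate numbers pair the samples could not be told. The deviations of same-numbered libraries correlated at 0.0387. This cannot decide it, because 99.1% of circRNAs with an irradiated read had no control read. Blocking on the replicate number gave 73 circRNAs called higher and 5 lower, and 0 hosts higher and 0 lower. With the block the HIPK3 exon 2 circle was no longer among those called. The HIPK2 exon 2 circle was called only without B1, and the HIPK3 circle of exons 7 to 14 only without B2. With a library left out its group has 1 library, which the fit assumes to vary like the other group, and none of these calls is a test of circles chosen by the same reads.

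The HIPK3 exon 2 share of 85.4% became 97.8% with circBase entries only. Its B1 over B2 ratio of 1.66 became 4.36 in raw reads and 4.43 per mapped read, and reversed to 0.895 per exonic read. Over the 26 exonic circles with at least 20 reads in B1, the HIPK3 circle among them, the other strand had 5.58% in place of 3.52%. In B2 the HIPK3 circle was the only one with that many reads. Its 3.85%, in place of 7.48%, is therefore no background for it. The ATM log2 fold change stayed between 5.45 and 6.70. After the data were seen, the fold over the control floor of 3 counts, per junction read, was also computed with a library left out. It was 21.2 without B1 and 35.1 without B2 for the HIPK3 exon 2 circle (31.3 with both), and 6.78 without B1 for the HIPK2 exon 2 circle (2.10 with both). Depth is 1 limit, as 6 of the 10 circRNAs had under 5 reads. A circle without a read in a library may still be present below the limit that 3 counts allow.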

Other observations

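The listed circRNA inside HIPK2 exon 2 (chr7:139415983-139416308) differed from the other HIPK circles in its own letters. A run of 8 bases in the 15 bases before its junction was complementary to a run in the 15 bases after it, where the other HIPK3 and HIPK2 junctions had runs of 2 or 3. Runs of at least 8 were found in 19 of 9027 nuclear circRNAs with a read (0.210%), and the median was 3. It was also the entry listed with equal reads, 2 in B2, on both strands.

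The circRNAs nearest to the HIPK2 exon 2 circle by level, named after their values were seen, were those of ELP3 (1 read in B1, 7 in B2), WHAMMP1 and EDIL3 (1 and 6 each), and ARHGAP32 and RBMS2 (1 and 5 each). Each of these 5 had no control read. The stroma markers with reads, COL3A1 and VIM, were read in B2 only, the library in which most HIPK2 reads lay, and the other 8 were at 0. None of the COL3A1 and VIM reads came from an exonic circle, and a link to the HIPK2 reads was not tested.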
